A study of Mus musculus with 24 samples.

Results

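The step compared here is the passage of T cell precursors from the double-positive to the CD4 single-positive stage in the mouse thymus, measured on 6 of the 24 arrays of the series. Members were chosen by the sample titles alone: 3 arrays of SP4 thymocytes (title numbers 10, 11 and 12) and 3 arrays of wt DP thymocytes (2, 3 and 3A). SP4 cells carry CD4 without CD8 and DP cells carry both, and all 6 samples came from the thymus of mice heterozygous for Foxn1 (+/-), the transcription factor that thymic epithelium needs, which the titles call wt. The labels give neither age, sex nor strain. One label of the SP4 samples names SP8 beside SP4, and the title decided the group. Nothing states that the replicates are separate mice, and DP 3 and 3A share a title number; the p-values thus cover only how far these samples scatter, in part perhaps for technical reasons. SP8 (CD8 single-positive) and DN3 (an earlier stage with neither co-receptor) thymocytes of the same genotype, 3 arrays each, serve as neighbours in the stage order. DP thymocytes of transgenic, Foxn1-deficient (-/-) mice are set beside them for some gene lists. Cells were sorted by flow cytometry, and their polyadenylated RNA was amplified by PCR before labelling with Cy3.

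As background, a DP thymocyte tests its newly rearranged T cell receptor against peptides on MHC molecules of the thymic cortex. A receptor that binds MHC class II with suitable strength gives a positive selection signal and steers the cell to the CD4 fate, with Gata3 and Zbtb7b (ThPOK) as known regulators, while Runx3 acts on the CD8 side. Selected cells stop receptor gene recombination, regain Il7r, the interleukin-7 receptor, and later gain Klf2, S1pr1 and Ccr7, which guide their exit and migration.

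Levels are given as log2 of the array signal minus the 75th percentile of that array, so 0 is a bright signal, and a difference of 1 is a doubling. A gene is read by its brightest probe, levels are not compared between genes, and the number of arrays limits the precision. In a bulk sample, fewer cells of a type and less RNA per cell cannot be told apart. The share of probes well above background was 90.3% to 91.6% on the SP4 arrays and 94.1% to 94.8% on the DP arrays. Across genes, pairs of SP4 arrays had correlations of 0.903 to 0.914 and SP4 arrays paired with DP arrays 0.908 to 0.928, while pairs of DP arrays had 0.943 to 0.948, so an SP4 array was no closer to another SP4 array than to a DP array. All DP arrays lay on 1 slide, SP4 10 and 12 on another and SP4 11 on yet another, with no slide holding both groups, so slide and stage cannot be told apart directly. A fit with the slide as a block links them through the other groups of the series.

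One stretch of the X chromosome, annotated on the array as long intergenic non-coding RNA (lincRNA), is given with its sequences. In each of its probes SP4 was apart from DP and SP8, and most of the probes have a near copy in another model. It was singled out after its values were seen. The stretch runs over chrX:92119889-92157256 (build mm9, reverse strand, 37.4 kb), outside the genes with a symbol on the array: the nearest probed ones are Zxda, 83.2 kb below in coordinate, and Spin4, 60.9 kb above. It holds 4 models with 9 probes of 60 bases. In the probe sequences, numbered by position and written 5′ to 3′ as on the array, capitals mark runs of 12 or more bases found exactly in a probe of another of the 4 models.
probe 1: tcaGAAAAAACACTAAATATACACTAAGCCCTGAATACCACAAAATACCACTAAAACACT
probe 2: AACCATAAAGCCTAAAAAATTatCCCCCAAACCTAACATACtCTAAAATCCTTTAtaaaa
probe 3: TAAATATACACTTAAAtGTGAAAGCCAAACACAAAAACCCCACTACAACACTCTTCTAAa
probe 4: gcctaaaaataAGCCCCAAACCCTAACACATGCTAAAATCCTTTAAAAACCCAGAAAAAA
probe 5: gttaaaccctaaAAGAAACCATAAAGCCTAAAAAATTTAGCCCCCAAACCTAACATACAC
probe 6: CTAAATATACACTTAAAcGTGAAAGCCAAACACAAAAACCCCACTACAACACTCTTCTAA
probe 7: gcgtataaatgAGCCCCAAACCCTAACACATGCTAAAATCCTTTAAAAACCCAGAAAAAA
probe 8: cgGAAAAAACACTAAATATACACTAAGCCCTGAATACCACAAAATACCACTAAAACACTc
probe 9: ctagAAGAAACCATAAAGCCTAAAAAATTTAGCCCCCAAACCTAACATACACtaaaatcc

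Probes 1 and 8 shared a run of 57 bases, probes 4 and 7 one of 49, probes 5 and 9 one of 48 and probes 3 and 6 one of 42, each pair joining different models. Probe 2 had no such near copy: its longest shared run was 21 bases, with probes 5 and 9. The 9 probes are therefore not independent measurements, and which of the 4 models gave the signal cannot be told apart. None of the other 55672 probes of the array (0) shared a run of 20 bases with them on either strand.

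All 9 probes were brighter in SP4 than in DP, by 2.74 to 4.03. Probe 5 read 2.77, 1.73 and 3.13 in SP4 10, 11 and 12, against -1.86, 0.05 and -2.64 in DP 3A, 2 and 3. Its lowest SP4 array thus stood above its highest DP array, and the same held for each of the 9 probes (9 of 9), where 5.64% of all genes had every SP4 array above every DP array. SP8 lay between: in 9 of 9 probes every SP4 array was above every SP8 array and every SP8 array above every DP array. The share of all genes in that order was not computed, and the stretch was singled out with these values known. With 1 probe per model, the lowest model in coordinate averaged 3.01 ± 0.51 in SP4, 1.66 ± 0.12 in SP8 and -0.24 ± 0.79 in DP (SD, n = 3 each). Its SP4 minus DP difference was 3.25 (SE 0.58, limma adjusted p = 0.0959), and those of the other models in order of position were 2.96 (adjusted p = 0.122), 3.07 (adjusted p = 0.223) and 3.87 (adjusted p = 0.205), so none passed the threshold of 0.05. When only the 12 wt thymocyte arrays were fitted, the lowest and the highest model passed, each at adjusted p = 0.0476. With the slide as a block the 4 differences were 3.55, 2.95, 3.20 and 4.20, and none passed (adjusted p 0.716 to 0.863). Over the slide that holds SP4 10, SP4 12 and all SP8 arrays, SP4 stood 1.62 to 2.07 above SP8 in the 4 models.

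**Figure D1:**
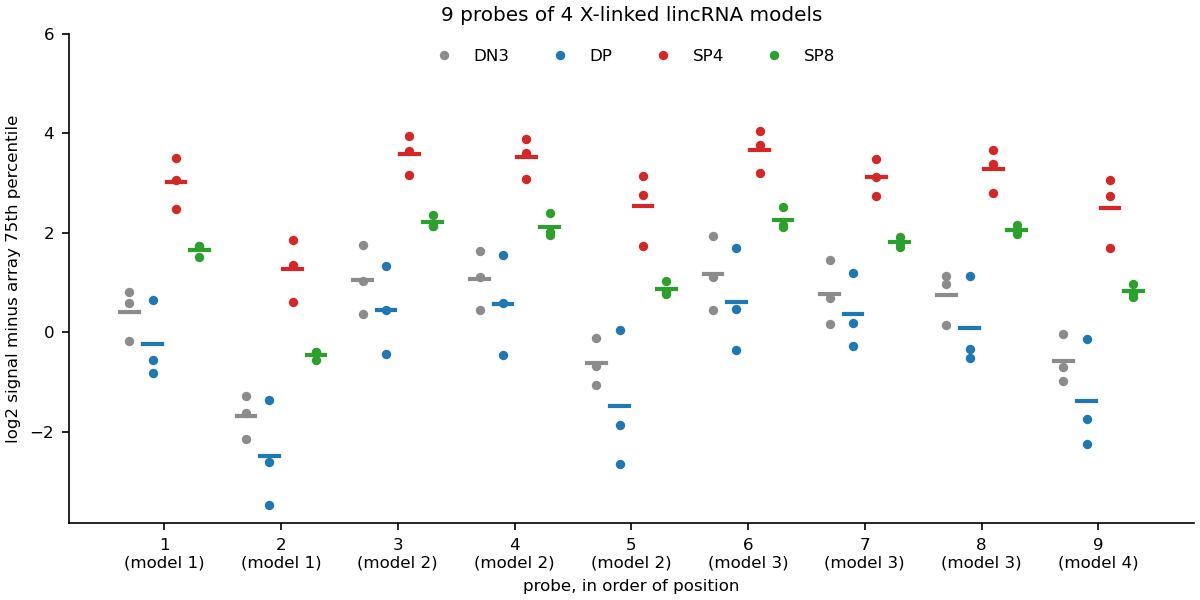
Level (log2 signal minus the array's 75th percentile, y axis) of the 9 probes of the X-linked lincRNA models in order of position (x axis), with a point per array, a bar at each mean and a colour per stage (DN3, DP, SP4, SP8; 3 arrays each). The red SP4 points lie above all other points in each probe, and the green SP8 points lie between SP4 and DP.

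Over the whole array, limma with Benjamini-Hochberg adjustment called 0 of 33538 genes higher (0%) and 0 lower (0%) in SP4 than in DP at an adjusted p under 0.05; the smallest adjusted p was 0.0625. At an unadjusted p under 0.05, 832 genes were higher (2.48%) and 1329 lower (3.96%). With another background correction (normexp) that split was 1097 higher (3.27%) and 1092 lower (3.26%), and 12 genes passed the adjusted threshold, all higher (0.0358%). The median difference of all genes was -0.07, and 42.6% of them were higher in SP4. Simulated arrays had independent noise, with the spread of each gene pooled over all groups and no slide effect. In them 86.4% of genes given a 4-unit log2 change, 51.5% of those given 2 units and 19.1% of those given 1 unit were called. Of the genes left unchanged, 7 were called too. The fit on the 12 wt thymocyte arrays, which leaves out the transgenic DP and the B cell arrays, called 20 genes higher (0.0596%) and 7 lower (0.0209%), with 3.94% higher and 6.31% lower at an unadjusted p under 0.05. With arrays weighted by their quality, 16 were higher (0.0477%) and 2 lower (0.00596%), beside 3.61% and 5.81% unadjusted.

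Among genes whose SP4 and DP arrays did not overlap (5.64% above, 9.75% below), those with the largest t above DP included the predicted gene Gm16519, the cytoskeletal genes Msn and Vim and the ribosomal protein genes Rps9 and Rpl12. Msn (chrX:93363832-93363891, mm9), moesin, which ties actin to the cell membrane, read 0.53, 0.94 and -0.05 in SP4 10, 11 and 12, against -1.75, -2.85 and -3.22 in DP 2, 3 and 3A. Every SP4 array was well above every DP array, and SP8 averaged -0.88. The difference was 3.08 (SE 0.51, limma adjusted p = 0.0641), and adjusted p = 0.0476 over the 12 wt thymocyte arrays, where it passed.

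Vim, the intermediate filament vimentin, read 0.44, -0.57 and -0.62 in SP4, against -2.53, -2.89 and -2.55 in DP 2, 3 and 3A. The groups were apart by 2.40 (SE 0.46, adjusted p = 0.15). Beta-actin, Actb, which was named after its values were seen, averaged 3.09 ± 0.22 in SP4 and 0.23 ± 0.32 in DP and passed over the 12 wt thymocyte arrays (difference 2.85, adjusted p = 0.0451; 0.415 on all arrays). The SP4 arrays of Msn, Vim and Actb lay wholly above their DP arrays, as in 5.64% of all genes. For Msn and Vim this follows from how they were chosen, and Actb was picked with its values known.

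Rps6ka6, a kinase of the ribosomal S6 kinase family, was the tightest of the leading genes, at -0.79, -0.86 and -0.68 in SP4, against -3.79, -3.47 and -3.40 in DP 2, 3 and 3A. Its difference was 2.78 (SE 0.46, adjusted p = 0.0641; 0.027 over the 12 wt thymocyte arrays), but its other probe, dimmer, differed by -0.19.

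Rasa1, a GTPase-activating protein that turns off Ras, was well above background on all 3 SP4 arrays and on 0 of 3 DP arrays. Only a bound can be given for it: SP4 (-4.25, -3.97 and -3.84) was at least 2.93-fold brighter than DP, whose measured mean was -7.21, with adjusted p = 0.0959. Here and for the other bounds the dim group is set on each array at the lowest signal of any probe well above background where its own signal is below that. The remaining leaders above DP were Gm16519, a predicted gene (difference 1.99, adjusted p = 0.0641), 2010016I18Rik (3.70, adjusted p = 0.0959), Nop10 of the small nucleolar ribonucleoproteins (1.17, adjusted p = 0.154) and the ribosomal protein genes Rps9 and Rpl12.

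The gene with the largest t below DP was Decr1. Decr1, a mitochondrial enzyme of unsaturated fatty acid oxidation, read -3.77, -3.16 and -3.94 in SP4, against -0.91, -1.68 and -1.55 in DP 2, 3 and 3A. That difference was -2.25 (SE 0.37, adjusted p = 0.0641), and both probes (0 of 2 higher) lay below DP. Against SP8, whose mean was -1.77, SP4 was lower by a like amount, -1.85 (unadjusted p = 9.86e-05), and no gene passed the adjusted threshold between SP4 and SP8.

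Ofd1, a centriole protein, was well above background on 0 SP4 arrays and on all DP arrays. SP4, with a measured mean of -7.27, was at least 1.75-fold lower than DP, at -4.09, -5.28 and -4.17 in DP 2, 3 and 3A (adjusted p = 0.154; 0.0451 over the 12 wt thymocyte arrays). Ankrd13c showed the same form, with SP4 at least 9.51-fold lower than DP (means -6.29 in SP4 and -2.07 in DP, adjusted p = 0.253). Fech, the ferrochelatase that ends haem synthesis, averaged -5.28 ± 0.68 in SP4, where 1 of 3 arrays was well above background, and -2.37 ± 0.49 in DP (adjusted p = 0.253).

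The other genes of this group were Dync2h1, a dynein of cilia (-2.09), C030034L19Rik (-1.75), Tdpoz3 (-1.71), Rdm1 (-1.47), Asl, the urea cycle enzyme argininosuccinate lyase (-1.17), and Atg4c, an autophagy protease (-0.83), with adjusted p from 0.205 to 0.268. None of them passed in the fit over the 12 wt thymocyte arrays (adjusted p 0.0702 to 0.197). With the slide as a block, the difference was 3.79 for Msn, 2.36 for Rps6ka6, 2.83 for Vim and -1.51 for Decr1, and none of the leading genes named here passed (adjusted p 0.182 to 0.999). With the slide as a block, Fech differed by -1.84 and Rdm1 by -0.88. With normexp background several differences were smaller: 0.85 for Rasa1, -1.38 for Decr1, -0.44 for Ofd1, -1.55 for Ankrd13c, -1.25 for Fech, -0.75 for Asl, -1.30 for Dync2h1 and -1.05 for C030034L19Rik.

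**Figure D2:**
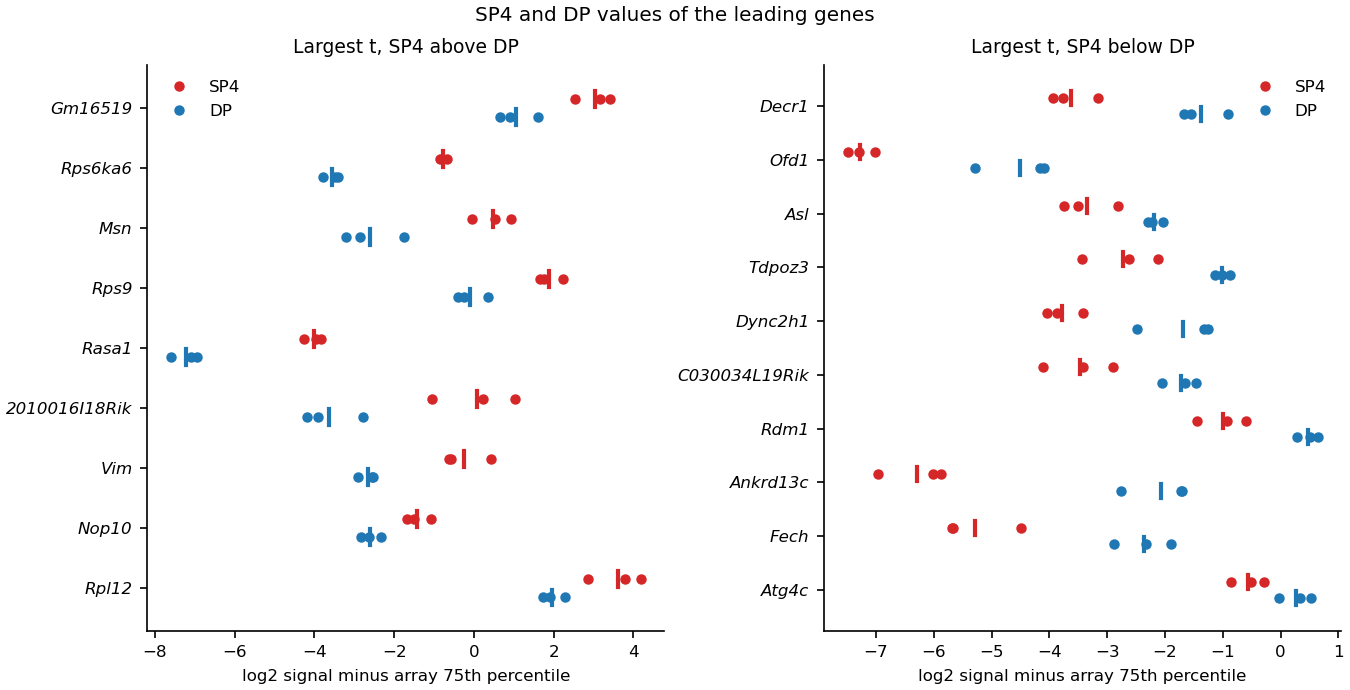
Level of the leading genes by t above DP (left) and below DP (right) among genes whose arrays do not overlap, as log2 signal minus the array's 75th percentile (x axis), with a point per array and a bar at each mean of 3 arrays. SP4 is red and DP blue; the points of the groups are apart by the choice of genes, as in Msn, from -0.05 to 0.94 in SP4 and from -3.22 to -1.75 in DP.

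The sorted identity was checked on the co-receptor and lineage genes first. Cd4, which both stages carry, averaged 3.63 ± 0.06 in SP4 and 3.53 ± 0.16 in DP on its brighter probe, and its other probe differed by -0.18. Cd4 was as bright in SP8 (3.46) and DN3 (3.54), cells sorted without it, so these probes did not separate CD4-bearing from CD4-lacking cells. Cd8a gave an answer that depends on the probe. The brighter one averaged -0.88 ± 0.37 in SP4 and -1.01 ± 0.38 in DP. The dimmer one read -3.53, -3.73 and -5.61 in SP4, against -2.65, -1.37 and -2.89 in DP 2, 3 and 3A, and -0.40, -0.63 and -0.07 in SP8. On that probe every SP4 array was below every DP array and every DP array below every SP8 array. The SP4 minus DP difference was -1.99 (SE 0.89). The sort would place SP4 below DP and SP8, which both carry CD8, but gives no order between DP and SP8. DN3, sorted without CD8, read -3.07, -4.31 and -2.67 on this probe and overlapped DP.

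Cd8b1, the CD8 beta chain, went against the labels: -2.41, -2.36 and -1.45 in SP4, against -4.33, -3.19 and -3.06 in DP 2, 3 and 3A, a difference of 1.45 (SE 0.47, adjusted p = 0.561; 0.68 with the slide as a block), with SP8 at -3.50. The lineage regulators Zbtb7b (4.76 ± 0.11 in SP4, 4.88 ± 0.11 in DP) and Runx3 (1.75 ± 0.48 in SP4, 1.53 ± 0.08 in DP) overlapped between the groups. This Zbtb7b probe was as bright in SP8 (4.75) and DN3 (4.77), so it did not separate the stages. The other, dimmer Zbtb7b probes differed by 0.24 and 0.53 and the dimmer Runx3 probe by 0.95, each with overlapping groups. Gata3 did not overlap: it read -1.75, -0.89 and -2.32 in SP4, against -4.46, -4.15 and -3.02 in DP 2, 3 and 3A, a difference of 2.22 (SE 0.51, adjusted p = 0.28; 1.44 with normexp). SP8 stood as high, at -1.71, and SP4 minus SP8 was 0.05.

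The list of CD4/CD8 lineage genes had 10 of 14 members higher in SP4 and a median of 0.13, beside 42.6% and -0.07 over all genes, and 0 members passed the adjusted threshold. Of T cell identity genes, Cd3e overlapped (0.52 ± 0.16 in SP4, 0.63 ± 0.11 in DP). For markers of other cell types these levels do not tell presence from absence, since most probes on these arrays were well above background. A level of 0 marks a bright probe signal, not a signal of 0, and does not show that the gene is expressed. B cell markers had 3 of 12 members higher (median -0.17; list mean per array -0.73 to -0.69 in SP4, -0.47 to -0.33 in DP), myeloid and dendritic markers 6 of 16 (median -0.09; 0.19 to 0.22 in SP4, 0.41 to 0.45 in DP) and erythroid markers 4 of 9 (median -0.08; -2.24 to -1.88 in SP4, -1.56 to -1.46 in DP). NK and innate-like T markers had 6 of 9 higher (median 0.09; list mean -1.69 to -1.39 in SP4, -2.06 to -1.51 in DP). Thymic epithelium markers had 4 of 12 (median -0.09; -0.63 to -0.40 in SP4, -0.48 to -0.39 in DP). Fibroblast and endothelial markers had 6 of 11 (median 0.09; -1.86 to -1.49 in SP4, -1.94 to -1.60 in DP). The mean of all genes was also lower on every SP4 array, at -0.97 to -0.85 against -0.81 to -0.78 in DP. The part of other cell types in the results was not tested.

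**Figure D3:**
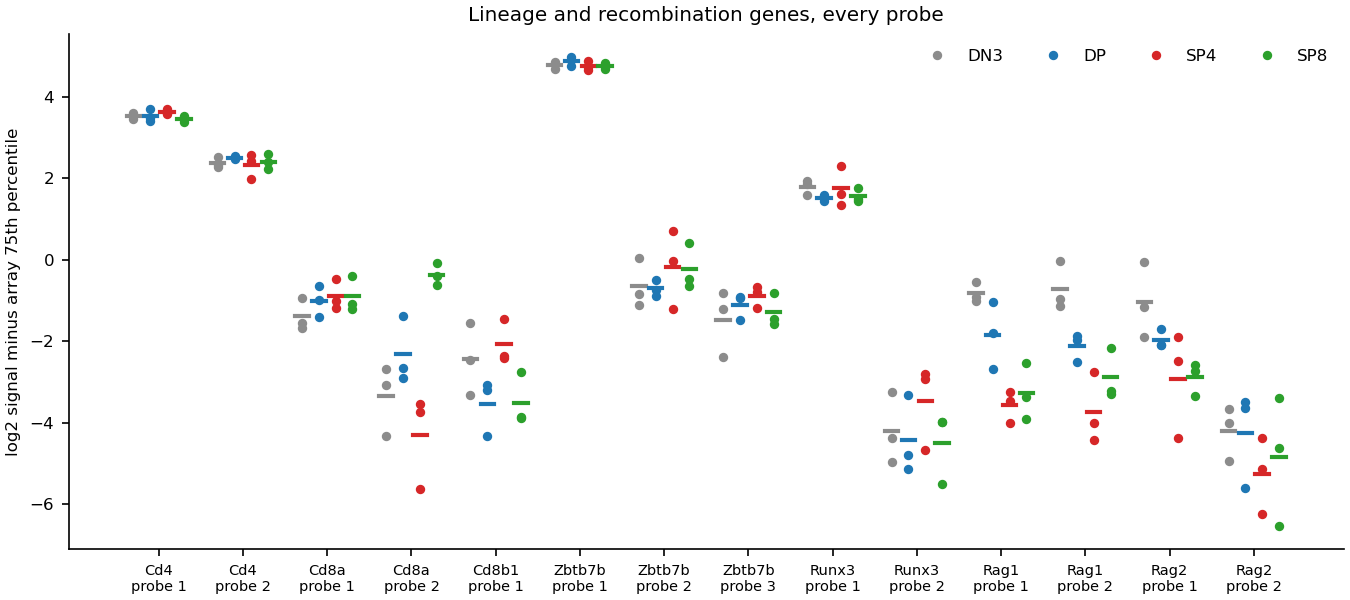
Level (log2 signal minus the array's 75th percentile, y axis) of each probe of the lineage genes Cd4, Cd8a, Cd8b1, Zbtb7b and Runx3 and of Rag1 and Rag2 (x axis, brighter SP4 mean first), with a point per array and a bar at each mean of 3 arrays for DN3, DP, SP4 and SP8. The dimmer Cd8a probe steps up over SP4, DP and SP8, the Cd4 probes are level over the stages, and both Rag1 probes are lower in SP4 than in DP.

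Recombination genes were checked next, since cells past selection no longer rearrange their receptors. Rag1, a subunit of the recombinase, read -2.75, -4.01 and -4.42 in SP4, against -1.96, -2.52 and -1.87 in DP 2, 3 and 3A. The groups did not overlap, and the difference was -1.61 (SE 0.66, adjusted p = 0.703), with -1.74 on the other probe, -0.78 with the slide as a block and -0.93 with normexp. Rag2, its partner, averaged -2.92 ± 1.30 in SP4 and -1.96 ± 0.23 in DP and overlapped, and its difference of -0.96 turned to 1.58 with the slide as a block. DN3 was brighter than both stages in Rag1, at -0.71, so Rag1 was lower at each step along DN3, DP and SP4. Dntt, which adds random bases to receptor joints, was level (1.61 ± 0.07 in SP4, 1.54 ± 0.19 in DP). Over the recombination list 8 of 12 members were higher in SP4, with a median of 0.04, and over the DP stage list 8 of 16, with a median of 0.005.

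T lineage transcription factors were the list with the widest shift among those of more than 3 genes: 14 of 15 members were higher in SP4, with a median of 0.53, and 6 had every SP4 array above every DP array, as in 5.64% of all genes. Ets1, needed for T cell survival and differentiation, read 3.84, 1.83 and 2.52 in SP4, against 0.30, 0.64 and 0.60 in DP 2, 3 and 3A (difference 2.22, SE 0.63, adjusted p = 0.418). Lef1, a partner of beta-catenin, averaged 0.56 ± 0.63 in SP4 and -1.31 ± 0.64 in DP (adjusted p = 0.753). Its close relative Tcf7 averaged 0.86 ± 1.18 in SP4 and -1.01 ± 0.59 in DP (adjusted p = 0.836), with the lowest SP4 array, at -0.49, next to the highest DP array, at -0.50. Satb1, a chromatin organiser that acts in CD4 and CD8 lineage choice, read 2.39, 1.14 and 0.88 in SP4, against -0.84, -0.86 and -0.51 in DP 2, 3 and 3A (difference 2.21, SE 1.14, adjusted p = 0.808).

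These 4 genes, Ets1, Lef1, Satb1 and Tcf7, shared a form over the stages: all DP arrays were below all SP4 arrays and below all DN3 arrays, as in 1.74% of all genes. The list mean was -0.37 to -0.09 on the SP4 arrays and -1.25 to -0.91 on the DP arrays. It was -0.66, -1.14 and -1.42 in SP8 13, 14 and 15, so SP8 overlapped DP. On the DP arrays' own slide the DN3 array read -0.60. The DP arrays of transgenic, Foxn1-deficient (-/-) mice on that slide read -0.64, -1.0 and -0.29, the last of them above the DN3 array and within the SP4 range. Tcf7 and Satb1 were lower in SP8 (-2.32 and -2.19) than in SP4, by 3.18 and 3.66 (unadjusted p = 0.00714 and 0.00475), though the SP8 mean of Satb1 rests on SP8 15, at -6.42 against 0.27 and -0.42 on the other SP8 arrays.

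**Figure D4:**
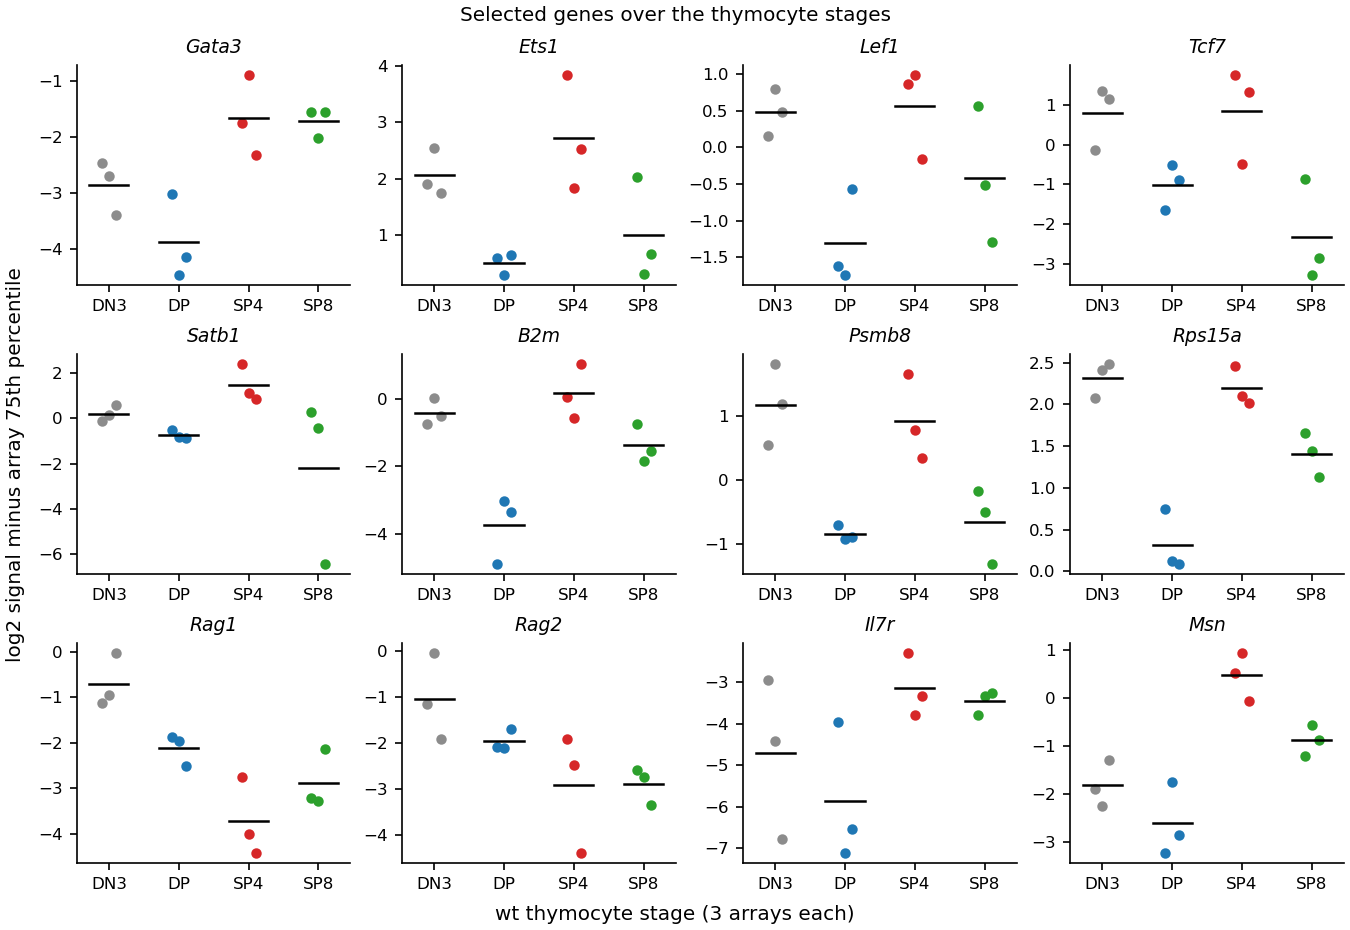
Level (log2 signal minus the array's 75th percentile, y axis, scaled per gene) of 12 genes over the stages DN3, DP, SP4 and SP8 (x axis), with a point per array and a bar at each mean of 3 arrays. Ets1, Lef1, Tcf7, Satb1, B2m, Psmb8 and Rps15a have all DP points below all DN3 and SP4 points, Rag1 steps down to SP4, and Msn is highest in SP4.

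MHC class I presentation genes had 10 of 12 members higher in SP4, with a median of 0.40. B2m, the light chain of MHC class I, had the widest difference of any list member: 0.05, -0.58 and 1.02 in SP4, against -3.03, -3.33 and -4.87 in DP 2, 3 and 3A. The lowest SP4 array stood well above the highest DP array, SP8 averaged -1.38 and DN3 -0.42. The difference was 3.91 (SE 1.34, adjusted p = 0.603), and it passed over the 12 wt thymocyte arrays (SE 0.55, adjusted p = 0.0476). Psmb8, an immunoproteasome subunit, read 1.65, 0.78 and 0.34 in SP4, against -0.92, -0.88 and -0.71 in DP 2, 3 and 3A (difference 1.76, SE 0.64, adjusted p = 0.64). H2-Q7, a non-classical class I heavy chain that resembles other class I genes closely, averaged 1.38 ± 0.78 in SP4 and 0.54 ± 0.24 in DP and overlapped (difference 0.83; 0.31 with the slide as a block).

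The T cell receptor itself was read through its constant genes, of which 3 could be matched and 3 of 3 were higher in SP4. Each had all SP4 arrays above all DP arrays, as in 5.64% of all genes. Trac, the alpha chain constant gene, read -1.13, 0.01 and -1.26 in SP4, against -2.73, -2.46 and -4.94 in DP 2, 3 and 3A (difference 2.58, SE 1.16, adjusted p = 0.753; 4.97 with the slide as a block). Trbc2 (difference 1.24, adjusted p = 0.803) and Trbc1 (0.50, adjusted p = 0.899), the near-identical beta chain constant genes, had smaller differences and may share signal. The receptor complex and proximal signalling list had 14 of 21 members higher and a median of 0.22.

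Genes of maturation and thymic exit had 14 of 20 members higher in SP4 and a median of 0.28. Il7r read -2.30, -3.80 and -3.33 in SP4, against -7.11, -6.54 and -3.97 in DP 2, 3 and 3A, and only 1 DP array was well above background. Its measured difference of 2.73 (SE 1.09, adjusted p = 0.693) rests on DP signals mostly not well above background, and it was 0.98 with normexp and 3.89 with the slide as a block. SP8 was near SP4, at -3.45. S1pr1, the sphingosine phosphate receptor that draws cells out of the thymus, read -1.64, -4.40 and -1.28 in SP4, against -3.04, -4.95 and -6.96 in DP 2, 3 and 3A, so the groups overlapped at SP4 11 (difference 2.54; 1.32 with normexp). Klf2, which drives S1pr1, averaged -0.64 ± 0.68 in SP4 and -1.92 ± 0.53 in DP (difference 1.28, adjusted p = 0.823). Ccr7, the receptor that draws cells to the medulla, differed by 0.31, within its spread.

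Il6ra, the interleukin-6 receptor, was apart in all arrays (-0.94 ± 0.54 in SP4, -2.46 ± 0.37 in DP, difference 1.52, adjusted p = 0.543) and in SP8 averaged -2.21. Il21r, the interleukin-21 receptor, was too (-0.72, -1.18 and -1.10 in SP4, -3.12, -1.58 and -1.74 in DP 2, 3 and 3A, difference 1.15, adjusted p = 0.618), but SP8 was as bright as SP4, at -1.09. The cytokine receptor and Stat list had 14 of 21 members higher and a median of 0.27, which was 0.063 without DP 2.

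In the positive selection signal list 13 of 19 members were higher, with a median of 0.14, beside 42.6% and -0.07 over all genes. Every SP4 array was above every DP array in 1 member and below in 2, beside 5.64% and 9.75% of all genes. Nfatc1, a factor activated by receptor-driven calcium, read -2.01, -0.68 and -1.55 in SP4, against -2.81, -2.32 and -2.42 in DP 2, 3 and 3A (difference 1.10, SE 0.42, adjusted p = 0.662). Egr3, an early response gene of receptor signalling, lay the other way (-2.05 ± 0.21 in SP4, -1.16 ± 0.47 in DP, difference -0.89, adjusted p = 0.703). Cd69 (difference 1.07, SE 1.05), Cd5 (0.31, SE 0.29), Egr1 (0.34, SE 0.44) and Nr4a1 (0.14, SE 0.29), all used as readouts of receptor signalling, differed by about their standard error or less, while Cd69 differed by 3.34 (SE 1.08, adjusted p = 0.9) with the slide as a block.

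Proliferation genes had 7 of 20 members higher in SP4 and a median of -0.10, beside 42.6% and -0.07 over all genes. In 1 member every SP4 array was above every DP array and in 3 every one below, beside 5.64% and 9.75% of all genes. Mcm2 of the replicative helicase was well above background on 0 of 3 SP4 arrays and on 2 of 3 DP arrays. SP4 was at least 1.61-fold lower (means -7.40 in SP4 and -4.63 in DP, adjusted p = 0.681), and the difference of -2.78 was -0.56 with normexp. Mcm7 of the same helicase averaged -1.58 ± 0.26 in SP4 and -0.53 ± 0.65 in DP (adjusted p = 0.831). Other members rose, among them Mcm5 by 0.55 (adjusted p = 0.867) and Top2a by 1.16 (adjusted p = 0.881). The survival genes Bcl2 (3.60 ± 0.07 in SP4, 3.70 ± 0.18 in DP) and Bcl2l1 (means 0.16 in SP4 and 0.44 in DP) overlapped, and the Bcl2 family had 6 of 15 members higher, with a median of -0.09 that was above 0 in 6 of 20 settings (-0.19 to 0.13).

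Cytosolic ribosomal proteins, a list taken by gene symbol after values were seen, had 67 of 78 members higher in SP4, with a median of 0.41, against 42.6% and -0.07 over all genes. In 36 of them every SP4 array was above every DP array and in 0 every one below, beside 5.64% and 9.75% of all genes. At an unadjusted p under 0.05, 22 were higher and 0 lower, beside 2.48% and 3.96% of all genes. Rps9 read 1.67, 2.23 and 1.76 in SP4, against 0.36, -0.24 and -0.40 in DP 2, 3 and 3A (difference 1.98, SE 0.34, adjusted p = 0.073). Rpl12 averaged 3.61 ± 0.67 in SP4 and 1.97 ± 0.28 in DP (1.64, adjusted p = 0.205), and Rpl23 1.25 ± 0.31 in SP4 and -0.57 ± 0.07 in DP (1.82, adjusted p = 0.285; 1.19 with the slide as a block). Rps9, Rpl23 and Rps15a passed over the 12 wt thymocyte arrays, each at adjusted p = 0.0476. Ribosomal protein genes have many processed pseudogenes, so their probes may read more than 1 copy, and the Rps4x probe is annotated to chromosome 3.

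Part of this list, too, had DP below both SP4 and DN3. In 29 of 78 members all DP arrays were below all SP4 and all DN3 arrays, where 1.74% of all genes had that form. In 0 of 78 were all DP arrays above all SP4 and all DN3 arrays, as in 1.87% of all genes. The mean of the 78 genes was 1.77, 1.53 and 1.66 in SP4 10, 11 and 12, against 1.12, 1.08 and 1.10 in DP 2, 3 and 3A, with SP8 at 1.30 to 1.44. The DN3 array on the DP arrays' slide read 1.52, and the other DN3 arrays 1.78 and 1.60. DP cells of transgenic, Foxn1-deficient (-/-) mice read 1.0 on the slide of SP4 11 and 1.14 to 1.22 on the slide of wt DP. On its slide, SP4 11 was above the DP array there, which is of the other genotype. On the slide of wt DP the DN3 array was above all 6 DP arrays. The part of slide and genotype in these levels was not tested. Most members were bright genes, with 51 of 78 in the brightest of 5 equal bins of mean level. In that bin 47.6% of all genes were higher in SP4, with a median of -0.01, and 8.61% had every SP4 array above every DP array. Eef1a1, a translation elongation factor named after its values were seen, averaged 2.17 ± 0.24 in SP4 and 0.20 ± 0.20 in DP and passed over the 12 wt thymocyte arrays (difference 1.97, adjusted p = 0.0476; 0.354 on all arrays).

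**Figure D5:**
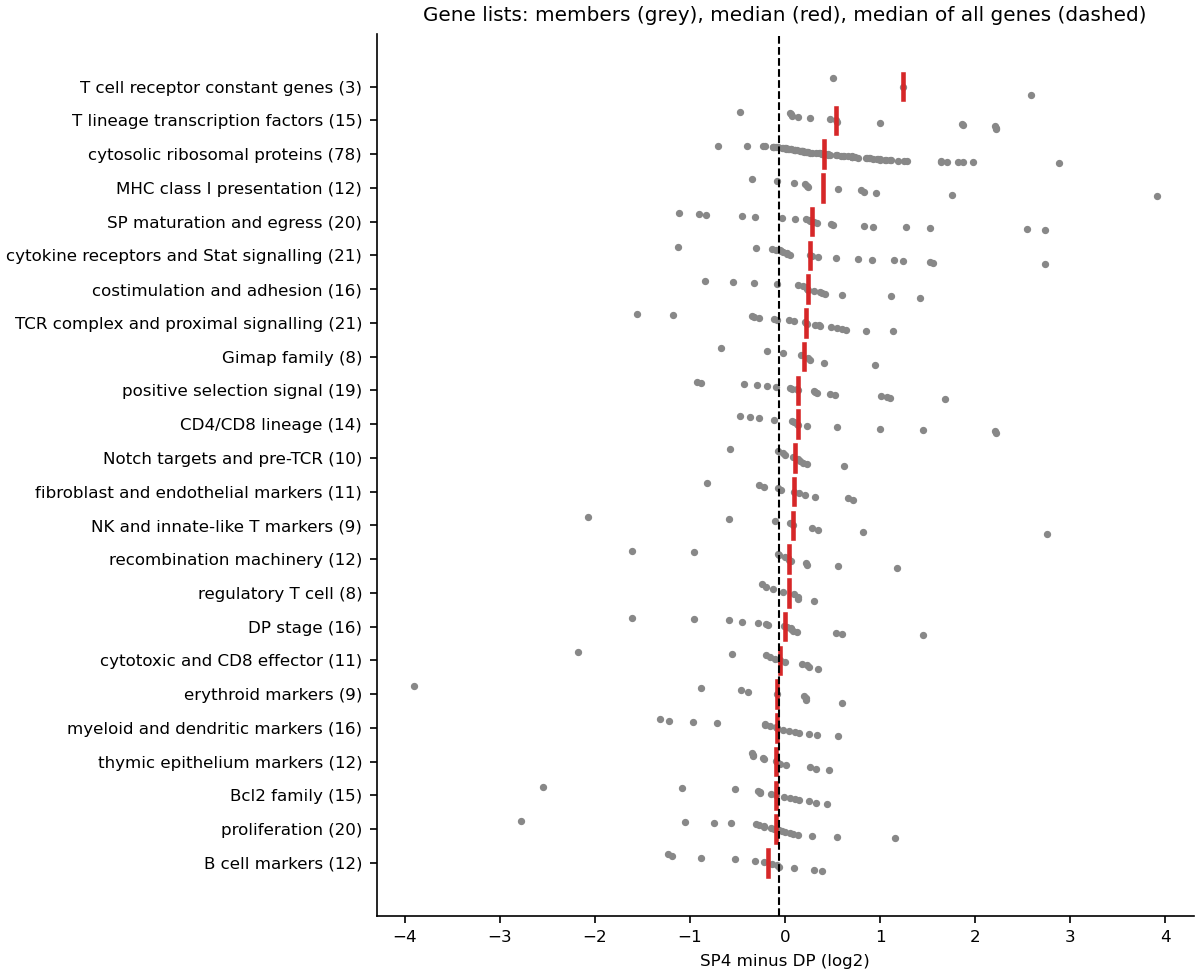
SP4 minus DP difference (log2, x axis) of the members of 24 gene lists (grey points, number measured in brackets), with the list median in red and the median of all 33538 genes, -0.07, as a dashed line. T cell receptor constant genes, T lineage transcription factors, ribosomal proteins and MHC class I presentation lie furthest to the right, with medians of 1.24, 0.53, 0.41 and 0.40, and B cell markers furthest to the left, at -0.17.

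Against SP8, the other outcome of selection, limma called 0 of 33538 genes higher (0%) or lower (0%) in SP4; at an unadjusted p under 0.05, 562 were higher (1.68%) and 1158 lower (3.45%). Between SP8 and DP it also called 0, with 1.08% higher and 1.06% lower at an unadjusted p under 0.05. SP4 minus DP and SP8 minus DP share the DP arrays, so their values are given side by side. Msn differed from DP by 3.08 in SP4 and by 1.73 in SP8, B2m by 3.91 and 2.36, Gata3 by 2.22 and 2.17, and Il7r by 2.73 and 2.42. Ets1 differed by 2.22 in SP4 and 0.49 in SP8, Psmb8 by 1.76 and 0.18, and Il6ra by 1.52 and 0.26. SP4 minus SP8 was 1.73 for Ets1 (unadjusted p = 0.0129), 1.58 for Psmb8 (0.0241) and 1.27 for Il6ra (0.0159), none past the adjusted threshold.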

How the data were processed

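Arrays were single-colour Agilent arrays. Per the file headers, the deposited spot intensities came from Feature Extraction 10.7.3.1; its processed signal was used. The deposited matrix holds log2 values of the authors, made by steps the sources used here do not name; each column had a median of 7.93 and kept its array's order, so scale and lack of centring are known from the data, and its values were an alternative. Control spots (3671 of 62976) and 238 non-uniform values were left out, and no spot was saturated. Gene names came from the array's accessions, symbols and descriptions and can be old.

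Processed signals were put on the log2 scale and the 75th percentile of each array was subtracted. A gene was kept if, throughout at least 1 group, a probe of it was well above background, and 33541 were. Differences were fitted with limma 3.58.1 in R 4.3.3 on all 24 arrays (group means, no covariate, Benjamini-Hochberg), and the fit was tested on simulated data. Members and lists were chosen with earlier results of these data known. Named genes are up to 10 on each side by moderated t among symbol genes whose arrays do not overlap, up to 5 per list by absolute t, and a fixed set of stage genes. Alternatives were other scalings, backgrounds, filters, probe rules, array sets, weights, slide blocks and single arrays left out. Some genes that this rule names are not reported here.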

Additional observations from a re-analysis of the deposited data

How the results depend on the processing

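The count of genes called between SP4 and DP, 0 by limma on all arrays (832 higher and 1329 lower at an unadjusted p under 0.05), was 6 with quantile scaling, 4 with median scaling, 12 with normexp background, 6 with the deposited matrix, 27 over the 12 wt thymocyte arrays, 18 with array weights and 2 without transgenic B array 23 (chosen after seeing the data). It stayed 0 with the other filters, the mean of probes, the 6 arrays alone, either slide block and same-numbered arrays averaged, and ranged from 0 to 1 with single arrays left out, the 1 without SP4 11. Taking the mean of all probes gave medians of -0.20 for the DP stage, 0.68 for MHC class I, -0.17 for myeloid markers and 0.59 for ribosomal proteins. With the slide as a fixed block, which links SP4 and DP only through other groups, medians were 0.61 for CD4/CD8 lineage, 0.95 for T lineage factors, 0.078 for MHC class I, -0.082 for regulatory T cell genes and 0.0082 for myeloid markers. The myeloid median was -0.041 with median scaling and -0.11 with same-numbered arrays averaged, and the erythroid one -0.24 with the filter on SP4 or DP. Leaving out single arrays gave 0.36 to 0.70 for T lineage factors, -0.15 to -0.033 for myeloid, 0.063 to 0.38 for cytokine receptor, -0.29 to 0.041 for erythroid, -0.25 to -0.13 for B cell, -0.082 to 0.15 for Notch and 0.36 to 0.53 for ribosomal lists. In at least 1 setting the median crossed 0 for the Bcl2 family, cytotoxic, DP stage, erythroid, fibroblast and endothelial, myeloid, NK, Notch, recombination, regulatory T cell and thymic epithelium lists. Signs turned for Cd4 -0.039, Cd8a -0.93 and Zbtb7b 0.21 with the mean of probes, and Zbtb7b 0.023, Rag2 1.58, Dntt -0.17, Nr4a1 -0.45 and Bcl2 1.10 with the slide block (Bcl2 0.037 with it random). With single arrays left out, Cd8a ran from -0.078 to 0.31, Dntt from -0.044 to 0.13, Nr4a1 from -0.22 to 0.47, Runx3 from -0.041 to 0.43 and Bcl2l1 from -0.77 to 0.22. The cause of these shifts was not tested. The other genes given with a difference in the text kept their sign in the alternatives run, leaving aside Mcm5 and Top2a, which were not followed over all of them. No paired analysis was possible because SP4 and DP share no replicate numbers. SP4 and DP share no slide, so the difference within a slide cannot be had.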

Other observations

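Members of the lists for other cell types went both ways. Of 16 myeloid and dendritic markers, 3 had every SP4 array above every DP array and 2 every one below, beside 5.64% and 9.75% of all genes. Cd68, a macrophage marker, averaged 0.35 ± 0.41 in SP4 and -0.21 ± 0.13 in DP (difference 0.56, limma adjusted p = 0.706), and its other probe differed by 0.013. Tfrc, the transferrin receptor, read -7.14, -3.99 and -6.51 in SP4, where 1 array was well above background, against -1.22, -2.50 and -2.22 in DP 2, 3 and 3A (difference -3.90, SE 1.13, limma adjusted p = 0.441), and its other probes differed by -0.45 and 1.07. With normexp the Tfrc difference was -1.57. Gzmb, the cytotoxic protease granzyme B, averaged -5.30 ± 0.83 in SP4 and -3.12 ± 0.18 in DP (adjusted p = 0.733), with 2 of 3 SP4 arrays well above background. Its difference of -2.17 was -0.34 with the slide as a block and -0.66 with normexp. Zbtb46, a transcription factor of dendritic cells, averaged 0.57 ± 0.57 in SP4 and 1.88 ± 0.54 in DP (adjusted p = 0.36). Its other probe went the other way, by 0.76, and the difference of -1.31 was -0.27 over the mean of both probes and -0.71 with the slide as a block. Fcer1g, a signalling chain of Fc receptors, averaged -1.66 ± 0.33 in SP4 and -0.44 ± 0.32 in DP (adjusted p = 0.457). In Tfrc, Gzmb, Zbtb46 and Fcer1g every SP4 array was below every DP array, as in 9.75% of all genes.

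Among the remaining lists, costimulation and adhesion had 12 of 16 members higher in SP4 (median 0.24), the Gimap family 5 of 8 (0.20), Notch targets and pre-TCR 6 of 10 (0.11), regulatory T cell genes 4 of 8 (0.04) and cytotoxic and CD8 effector genes 4 of 11 (-0.05). Ywhae, a 14-3-3 adaptor protein named after its values were seen, averaged -0.81 ± 0.36 in SP4 and -2.54 ± 0.18 in DP, and the difference of 1.73 passed over the 12 wt thymocyte arrays (adjusted p = 0.0408; 0.471 on all arrays).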
